A study of Mus musculus with 21 samples.

Results

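The iron transport and storage genes described here are 10 mouse genes chosen by name: Trf, Tfrc, Slc11a2, Fth1, Ftl1, Slc40a1, Cp, Heph, Aco1 and Ireb2. They are 10 of the 25239 gene symbols in the deposited expression table of each tissue, and all 10 passed the filter on low values, a tissue mean of at least 10, in both tissues. Poly(A) RNA was sequenced in bulk from choroid plexus, the secretory tissue of the brain ventricles that makes cerebrospinal fluid, and from hypothalamus. All mice were wild type on the C57BL/6J background, and the labels give no age. The 4 groups were choroid plexus with Ins2, a mouse insulin gene, overexpressed in the choroid plexus (6 libraries), choroid plexus of untreated controls (5), hypothalamus of mice with the same overexpression in the choroid plexus (5) and hypothalamus of untreated controls (5, replicates 1 to 4 and 6). The labels do not say how Ins2 was introduced, which limits what the model represents. In the table the columns of the hypothalamus controls are named with GFP, although their labels call them untreated. The labels do not tie libraries to separate animals, and the p-values then reflect library-to-library spread alone, which may be technical.

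Iron travels in plasma and cerebrospinal fluid bound to transferrin, enters cells through the transferrin receptor and crosses the membrane of the endosome through the divalent metal transporter. Inside the cell it is used or stored in ferritin, a shell of heavy and light chains, and it leaves through ferroportin together with a copper-containing oxidase that makes it fit to bind transferrin. Iron regulatory proteins, the products of Aco1 and Ireb2, bind hairpins called iron-responsive elements in low iron, where they block translation from elements in the 5′ untranslated region and protect messages with elements in the 3′ untranslated region. In the brain, transferrin is known to be made by the choroid plexus and by oligodendrocytes.

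The hairpins are shown because they are what the iron regulatory proteins read, and because part of this control acts on translation, which messenger RNA levels do not measure. A search of the sense strand of the GENCODE M21 transcripts (GRCm38) looked for a C, 5 bases, the loop CAGTGN without G at its last base, and 5 bases that pair with the first 5, allowing G with T. Of the 10 genes, 3 held such a hairpin with all 5 pairs in the 5′ untranslated region: Fth1 (chr19:9982732-9982761, plus strand), Ftl1 (chr7:45459778-45459807, minus strand) and Slc40a1 (chr1:45925464-45925493, minus strand). Tfrc held 4 in its 3′ untranslated region on the plus strand (chr16:32631219-32631248, chr16:32631598-32631627, chr16:32631663-32631692 and chr16:32631710-32631739), each with all 5 pairs. Slc11a2 held 1 in a 3′ untranslated region with 4 of 5 pairs (chr15:100395152-100395181, minus strand). In the sequences, 5′ to 3′ on the transcript strand, capitals mark the 6 bases of the loop.
Fth1: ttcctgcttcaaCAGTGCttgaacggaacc
Ftl1: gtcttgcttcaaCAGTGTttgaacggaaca
Slc40a1: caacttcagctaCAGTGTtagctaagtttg
Tfrc, site 1: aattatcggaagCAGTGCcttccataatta
Tfrc, site 2: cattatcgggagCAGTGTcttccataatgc
Tfrc, site 3: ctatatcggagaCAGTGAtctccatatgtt
Tfrc, site 4: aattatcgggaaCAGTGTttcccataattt
Slc11a2: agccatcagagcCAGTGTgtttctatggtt
Among 21875 protein-coding genes searched, 21 (0.096%) held a hairpin with 5 pairs in the 5′ untranslated region and 98 (0.448%) in the 3′ untranslated region. With 4 pairs or more the counts were 127 (0.581%) and 653 (2.99%). Heph had a match with 4 pairs inside its coding sequence, as did 1021 genes (4.67%), and Trf, Cp, Aco1 and Ireb2 had no match to these letters in the transcripts searched. A match is a run of letters, and binding was not measured. Elements that depart from the pattern are not counted, so the number of matches in a gene need not be its number of elements.

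The libraries held 25.95 to 36.3 M gene reads (M, 1e+06) in choroid plexus and 27.4 to 62.1 M in hypothalamus, so that 3 reads, the most a count of 0 allows, correspond to 0.0483 to 0.116 reads per M, for counting error only. The targeted gene was highest in the Ins2 choroid plexus, at 826 ± 162 size-factor-scaled reads in Ins2 libraries (SD, n = 6) and 430 ± 50.7 in controls (n = 5; limma adjusted p = 0.00594), with no overlap between groups. In hypothalamus Ins2 had 0 reads in 9 of 10 libraries. The tissue labels fit their defining markers. All 8 epithelial markers of choroid plexus were detected there, with a sum of 117850 to 140247 reads per M in Ins2 libraries and 118841 to 131170 in controls, and the same markers summed to 39.6 to 42.9 reads per M in Ins2 hypothalamus and 35.8 to 46.3 in control hypothalamus. Choroid plexus control 2 stood apart in myelin transcripts: its 10 myelin markers summed to a scaled value of 55432, against 2733 to 3344 in the other 4 controls and 2648 to 6080 in the Ins2 libraries. Its 7 astrocyte markers summed to 10792 (3379 to 5271 in the other controls). Its 9 hypothalamus neuron markers summed to 676 (29.9 to 58.7), of which Avp alone made up 577 and Oxt 68.8. Its 7 general neuron markers, at 474, lay close to the other controls (274 to 454). Whether neighbouring brain tissue was carried over was not tested. Control 5 had the lowest sum of 9 macrophage and microglia markers, a scaled value of 661, against 1044 to 1765 in the other controls. Of 7 red blood cell markers, the 4 haemoglobin genes were listed at 0 in every library of both tissues. Alas2, on the same list, had reads in every library. Its scaled value was 51.3 to 148 in Ins2 and 43.9 to 104 in control choroid plexus, and 93.2 to 142 in Ins2 and 87.8 to 169 in control hypothalamus. The blood content of the libraries was not tested.

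**Figure D1:**
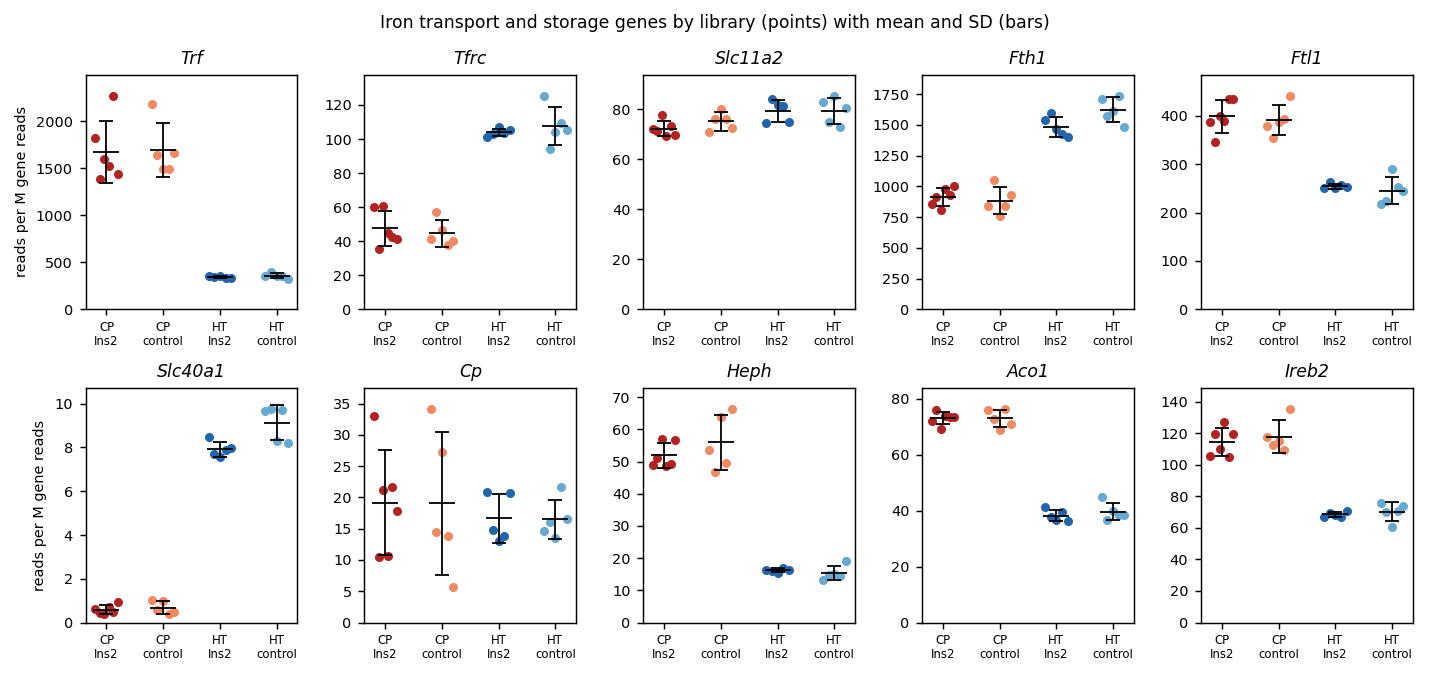
Reads per M gene reads (M, 1e+06) of the 10 iron genes in each library (points), with the group mean and SD (bars), for Ins2 and control choroid plexus (CP) and Ins2 and control hypothalamus (HT). Trf and Heph lay higher in every choroid plexus library than in any hypothalamus library, Slc40a1 and Tfrc lower, and the Ins2 and control points of each tissue overlapped for all 10 genes.

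Iron carriage and uptake came first. Trf (chromosome 9, 103204001 to 103230444, minus strand) encodes transferrin. In choroid plexus it reached 1388 to 2267 reads per M in the 6 Ins2 libraries (median 1557) and 2182.3, 1634, 1492, 1490 and 1662 in controls 1 to 5. In hypothalamus it had 358, 341, 351, 330 and 333 reads per M in the Ins2 libraries and 353, 396, 350, 354 and 324 in the controls. The 2 tissues did not overlap, and within each tissue the ranges of the Ins2 and control libraries overlapped. On the same strand, the annotated gene Gm20425 shares 63.5% of the exon bases of Trf, and reads of both cannot be told apart there. Gm20425 was not analysed here.

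Trf is also an oligodendrocyte gene, so myelin transcripts were set beside it. Control 2 of the choroid plexus, with the raised myelin sum, had 1634 reads per M of Trf, in the middle of its group. Per read of the 10 myelin markers there were 7.496 to 17.97 Trf reads in Ins2 choroid plexus, 13.45 to 20.6 in control choroid plexus without control 2, and 0.885 in control 2. In hypothalamus the ratio was 0.0473 to 0.0507 in Ins2 libraries and 0.0460 to 0.0534 in controls. Every choroid plexus library had more Trf and fewer myelin reads per M than any hypothalamus library. The part of any cell type in its level was not tested.

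Tfrc (chromosome 16, 32608920 to 32632794, plus strand) encodes the transferrin receptor. It had 35.7 to 60.7 reads per M in Ins2 choroid plexus (median 43.7) and 41.2, 57.4, 46.7, 37.5 and 40.0 in control choroid plexus. In hypothalamus it had 101, 103, 107, 104 and 105 reads per M in Ins2 libraries and 125, 94.3, 104, 109 and 106 in controls. Every choroid plexus library lay below every hypothalamus library. Tfrc is strongly expressed by brain capillaries, so 8 endothelial markers were set beside it. Of these, 4 (Cldn5, Pecam1, Cdh5 and Flt1) lay lower in every choroid plexus library than in any hypothalamus library, as Tfrc did, Slco1c1 and Kdr lay higher, and Plvap and Emcn overlapped. Cldn5, a tight junction gene of brain capillaries, had 1.35 to 2.84 reads per M in Ins2 and 1.59 to 4.64 in control choroid plexus, against 22.6 to 33.9 in Ins2 and 28.6 to 35.4 in control hypothalamus. The sum of the 8 was 927 to 1099 reads per M in Ins2 and 976 to 1125 in control choroid plexus, against 190 to 214 in Ins2 and 197 to 221 in control hypothalamus, but Slco1c1, a thyroid hormone transporter, alone had 851 to 1008 in choroid plexus. Without it, a choice made after its values were seen, the other 7 summed to 61.8 to 174 in Ins2 and 89.99 to 147 in control choroid plexus, against 149 to 176 in Ins2 and 158 to 181 in control hypothalamus. In bulk tissue, fewer cells of a type and less RNA per cell cannot be told apart. The part of any cell type in this difference was not tested.

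Slc11a2 (chromosome 15, 100387898 to 100425072, minus strand) encodes the divalent metal transporter DMT1. Its level was close in all 4 groups: 69.2 to 77.7 reads per M in Ins2 choroid plexus (median 71.9), 70.9 to 80.3 in control choroid plexus, 74.6 to 84.0 in Ins2 hypothalamus and 73.0 to 85.4 in control hypothalamus. Of its exon bases, 6.33% lie opposite Gm5475, and whether the authors' counting used strand is not given in the sources used here.

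Storage rests on the ferritin chains. Fth1 (chromosome 19, 9980598 to 9985098, plus strand), the heavy chain with the ferroxidase centre, had 806 to 1002 reads per M in Ins2 choroid plexus (median 921) and 843, 1053, 755, 841 and 927 in control choroid plexus. In hypothalamus it had 1537, 1595, 1467, 1426 and 1401 reads per M in Ins2 libraries and 1713, 1570, 1615, 1737 and 1485 in controls. Hypothalamus was higher in every library. Ftl1 (chromosome 7, 45457944 to 45459884, minus strand), the light chain, ran the opposite way: it had 346 to 435 reads per M in Ins2 choroid plexus (median 395) and 379, 355, 388, 394 and 442 in control choroid plexus. The hypothalamus libraries had 252, 263, 250, 256 and 253 with Ins2 and 218, 223, 290, 252 and 244 in controls, all below every choroid plexus library. Both ferritin genes have processed copies elsewhere in the genome (Fth-ps2, Fth-ps3, Ftl1-ps2 and Ftl2-ps among them) whose reads the counting could have split or lost, and 26.5% of the exon bases of Ftl1 lie opposite Gm10252, so both levels are uncertain to that extent.

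The composition of ferritin messages can be read within a library, where no scaling between tissues enters. Reads of Fth1 per read of Ftl1 were 2.30 ± 0.233 in Ins2 choroid plexus (SD, n = 6) and 2.27 ± 0.399 in control choroid plexus (n = 5), against 5.82 ± 0.266 in Ins2 hypothalamus (n = 5) and 6.68 ± 0.881 in control hypothalamus (n = 5). The choroid plexus libraries ran from 1.95 to 2.96 and the hypothalamus libraries from 5.54 to 7.84, with no overlap. Control 2 of the choroid plexus, the library with the raised myelin sum, had the highest ratio of its tissue, 2.96, against 1.95 to 2.22 in the other controls. Per kilobase of basic protein-coding transcripts, the ratio was 1.43 ± 0.145 in Ins2 and 1.41 ± 0.248 in control choroid plexus. In hypothalamus it was 3.62 ± 0.165 in Ins2 and 4.15 ± 0.547 in control libraries. These values depend on the length used. With all annotated exons, Ftl1 averaged 292 reads per kilobase per M in control choroid plexus, above Fth1 at 255. In control hypothalamus Fth1 (468) stayed above Ftl1 (183). Reads of Trf per read of Tfrc were 36.3 ± 9.44 in Ins2 and 38.9 ± 9.55 in control choroid plexus. In hypothalamus they were 3.29 ± 0.145 in Ins2 and 3.33 ± 0.523 in control libraries.

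**Figure D2:**
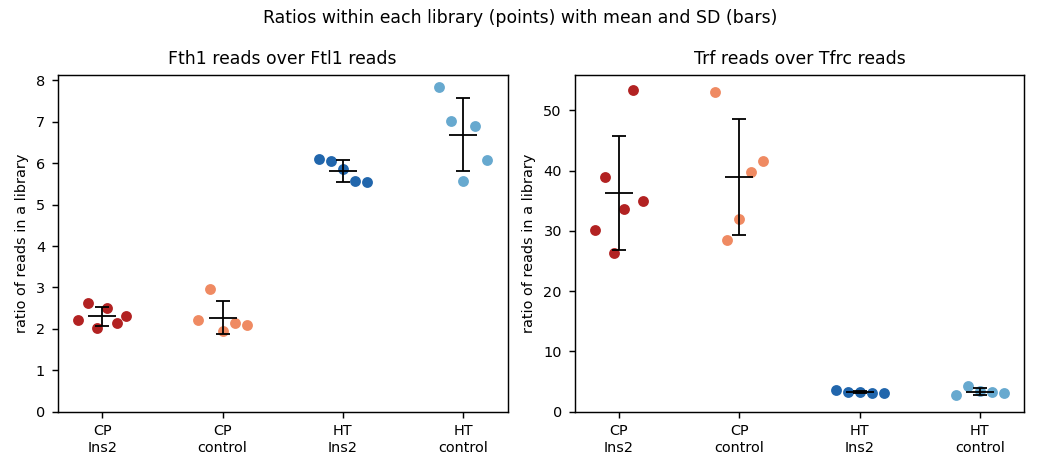
Reads of Fth1 per read of Ftl1 (left) and of Trf per read of Tfrc (right) within each library (points), with the group mean and SD (bars), for Ins2 and control choroid plexus (CP) and Ins2 and control hypothalamus (HT). The ferritin ratio stayed at 1.95 to 2.96 in choroid plexus and 5.54 to 7.84 in hypothalamus, and the transferrin to receptor ratio at 26.3 to 53.4 in choroid plexus and 2.82 to 4.197 in hypothalamus.

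Of the genes of iron export, Slc40a1 and Heph differed between the tissues in opposite directions, and Cp overlapped between them. Slc40a1 (chromosome 1, 45908068 to 45926523, minus strand) encodes ferroportin, the known cellular iron exporter. It was close to absent from choroid plexus, at 0.368 to 0.944 reads per M in Ins2 libraries (median 0.552) and 1.01, 0.573, 0.973, 0.402 and 0.470 in controls. In hypothalamus it had 8.46, 7.72, 7.56, 7.88 and 7.99 reads per M in Ins2 libraries and 9.67, 9.75, 8.28, 9.69 and 8.22 in controls. The sum of 9 markers of macrophages and microglia, cells that express ferroportin, was also lower in choroid plexus, with 5 of them (Cd68, Csf1r, C1qa, C1qb and C1qc) lower in every library there and the other 4 overlapping between the tissues. They summed to 36.8 to 76.5 reads per M in Ins2 and 22.1 to 58.6 in control choroid plexus, against 177 to 188 in Ins2 and 166 to 190 in control hypothalamus. Per read of these markers there were 0.00686 to 0.0189 Slc40a1 reads in Ins2 choroid plexus, 0.0109 to 0.0212 in control choroid plexus, 0.0418 to 0.0451 in Ins2 hypothalamus and 0.0436 to 0.0585 in control hypothalamus. The part of these cells in the difference was not tested, and the ratio itself also stood apart between the tissues.

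Heph (chromosome X, 96455359 to 96574485, plus strand) encodes hephaestin, a membrane-bound ferroxidase. It had 48.6 to 57.1 reads per M in Ins2 choroid plexus (median 50.2) and 53.5, 46.7, 63.8, 49.6 and 66.3 in control choroid plexus. In hypothalamus it had 16.4, 16.02, 15.3, 16.96 and 16.5 reads per M in Ins2 libraries and 13.2, 14.7, 15.1, 14.5 and 19.0 in controls. Choroid plexus, the tissue with little ferroportin message, was the one with more hephaestin message.

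Cp (chromosome 3, 19957054 to 20009145, plus strand) encodes ceruloplasmin, the copper-carrying ferroxidase of plasma, which astrocytes hold as an anchored form. Its spread was the largest of the 10 genes in every group, with a coefficient of variation of 44.1% in Ins2 and 59.8% in control choroid plexus and 22.6% in Ins2 and 18.6% in control hypothalamus. It had 10.5 to 33.0 reads per M in Ins2 libraries (median 19.5) and 34.1, 14.4, 27.2, 13.8 and 5.61 in controls. In hypothalamus it had 20.9, 14.9, 13.0, 13.8 and 20.7 reads per M in Ins2 libraries and 14.6, 16.1, 13.5, 21.6 and 16.6 in controls. The highest control of the choroid plexus was 6.02 times the lowest, and the tissues overlapped. Reads of Cp per read of Heph were 0.371 ± 0.174 in Ins2 choroid plexus and 0.347 ± 0.204 in control choroid plexus, against 1.02 ± 0.224 in Ins2 hypothalamus and 1.09 ± 0.247 in control hypothalamus.

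The spread of Cp across the 11 choroid plexus libraries was shared by a few genes. This look was added after the values of Cp were seen. Of 12169 genes with a mean of 50 or more, the 5 whose centred log2(value + 1) lay nearest to that of Cp were Moxd1, Coch, Foxc1, Emp1 and Snai1, with root-mean-square differences of 0.16, 0.19, 0.20, 0.21 and 0.23, against 0.75 for the deviation of Cp from its own mean. Foxc1 and Snai1 encode transcription factors, Foxc1 one known for the meninges, and Coch encodes the extracellular protein cochlin. Cp and these 5 were lowest in control 5. Cp there had a scaled value of 167, against 1007 in control 1, and Foxc1 had 33.5 in control 5 and 219 in control 1. Among the controls the sum of 5 fibroblast markers was also highest in controls 1 and 3 and lowest in control 5: its scaled value was 6796, 5152, 6751, 5562 and 4585 in controls 1 to 5, where Cp had 1007, 434, 820, 409 and 167, and it ran from 4053 to 6835 in the Ins2 libraries. Per read of these markers there were 0.0677 to 0.156 Cp reads in Ins2 and 0.0365 to 0.148 in control choroid plexus, so the ratio itself also varied. Control 5 was the lowest control in macrophage markers too. The part of these cells in the spread of Cp was not tested, the libraries differ in depth and tissue composition, and the nearness is a description.

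**Figure D3:**
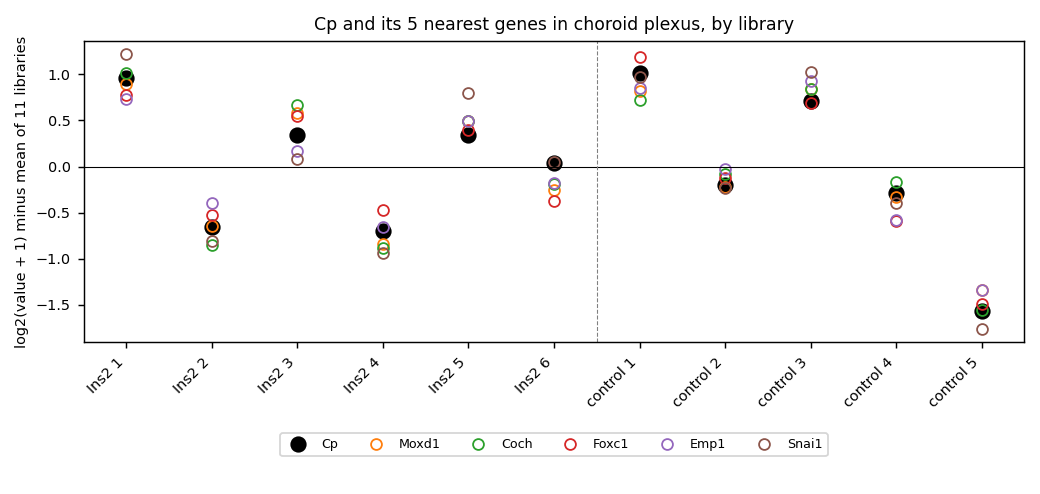
Cp (filled) and its 5 nearest genes (open) in the 6 Ins2 and 5 control libraries of choroid plexus, as log2(value + 1) minus the mean of the 11 libraries. All 6 genes were lowest in control 5, and controls 1 and 3 and Ins2 libraries 1, 3 and 5 lay above the mean for each of them.

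Of the iron sensors, Aco1 had the smallest spread of the 10 genes in choroid plexus, with a coefficient of variation of 3.21% in Ins2 and 3.61% in control libraries. Aco1 (chromosome 4, 40143081 to 40198338, plus strand) encodes cytosolic aconitase, which becomes iron regulatory protein 1 when it lacks its iron-sulphur cluster, and had 69.3 to 75.8 reads per M in Ins2 choroid plexus (median 73.5), 68.9 to 76.3 in control choroid plexus, 36.2 to 41.2 in Ins2 hypothalamus and 36.7 to 44.9 in control hypothalamus. Ireb2 (chromosome 9, 54863789 to 54912530, plus strand) encodes iron regulatory protein 2, which is controlled by breakdown of the protein, and had 105 to 127 reads per M in Ins2 choroid plexus (median 115), 109 to 135 in control choroid plexus, 66.7 to 70.9 in Ins2 hypothalamus and 60.4 to 75.8 in control hypothalamus. Both lay higher in every choroid plexus library than in any hypothalamus library. Their ratio within a library, Ireb2 over Aco1 reads, overlapped between the tissues: 1.57 ± 0.109 in Ins2 choroid plexus, 1.62 ± 0.182 in control choroid plexus, 1.80 ± 0.135 in Ins2 hypothalamus and 1.77 ± 0.171 in control hypothalamus.

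Per length, the levels of the members of a tissue can be ordered. In control choroid plexus, reads per kilobase of transcript per M gene reads were 616 for Trf, 567 for Fth1 and 405 for Ftl1, then 20.4 for Ireb2, 19.0 for Aco1, 13.1 for Slc11a2, 9.36 for Heph, 8.58 for Tfrc, 3.28 for Cp and 0.204 for Slc40a1. The ranges of the neighbours Trf and Fth1, Ireb2 and Aco1, and Heph and Tfrc overlapped over the 5 libraries. In control hypothalamus the order was Fth1 (1042), Ftl1 (254), Trf (129), Tfrc (20.7), Slc11a2 (13.8), Ireb2 (12.2), Aco1 (10.3), Cp (2.84), Slc40a1 (2.71) and Heph (2.56). There the ranges of Slc11a2 and Ireb2, Ireb2 and Aco1, Cp and Slc40a1, and Slc40a1 and Heph overlapped. By group means transferrin thus stood first in control choroid plexus, but Fth1 lay above Trf in control 2 (676 for Fth1 and 595 for Trf) and in Ins2 libraries 2, 4 and 6. In hypothalamus Trf lay below both ferritin chains in every library. Lengths were those of basic protein-coding transcripts. With the length of all annotated exons, Trf lay above Fth1 in every choroid plexus library. Trf then had 418 to 683 in Ins2 and 449 to 657 in control choroid plexus, and Fth1 232 to 289 and 218 to 303. In control choroid plexus Ftl1 (292) then came above Fth1 (255) and Aco1 (16.2) above Ireb2 (12.4). In control hypothalamus Aco1 (8.82) came above Ireb2 (7.40), and Heph (1.998) above Cp (1.72) and Slc40a1 (1.01).

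The comparison of the tissues, choroid plexus over hypothalamus, was made in reads per M in the control libraries and described without a test, since each tissue has its own table and tissue and table cannot be told apart. A gene was counted where the means differed at least 2-fold and the ranges did not overlap. Of the 10 iron genes, Trf and Heph were higher in choroid plexus by this rule and Tfrc and Slc40a1 lower. Across the 15314 genes compared, 16.2% were higher and 38.6% lower, so 2 of 10 in each direction is close to the background for higher and below it for lower. Ranges did not overlap for 8 of the 10, all but Slc11a2 and Cp, against 81.2% of all genes.

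Trf averaged 1692 ± 285 reads per M in control choroid plexus and 355 ± 25.8 in control hypothalamus (SD, n = 5 each), a ratio of 4.76, higher than the ratio of 92.4% of the genes. Heph averaged 56.0 ± 8.66 in control choroid plexus and 15.3 ± 2.18 in control hypothalamus, a ratio of 3.66. Slc40a1 averaged 0.686 ± 0.287 in choroid plexus and 9.12 ± 0.799 in hypothalamus, a ratio of 0.0752, or 13.3 times less. Tfrc averaged 44.6 ± 7.94 in choroid plexus and 108 ± 11.3 in hypothalamus, a ratio of 0.413. The other members lay nearer to 1: Aco1 at 1.84, Ireb2 at 1.68, Ftl1 at 1.60, Cp at 1.15, Slc11a2 at 0.947 and Fth1 at 0.544. The Ins2 libraries of both tissues gave the same 4 genes, beside 16.6% of all genes higher and 37% lower, with ratios of 4.88 for Trf, 3.20 for Heph, 0.457 for Tfrc and 0.0741 for Slc40a1, and ranges again did not overlap for 8 of 10 members, against 80.9% of all genes.

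How the tissues are scaled moves these ratios together. Ttr alone took 10.7% to 12.98% of the choroid plexus reads, and the median gene had a log2 ratio of -0.58. The log2 ratios of the members relative to that median were 2.83 for Trf, 2.45 for Heph, 1.46 for Aco1, 1.33 for Ireb2, 1.25 for Ftl1, 0.79 for Cp, 0.50 for Slc11a2, -0.30 for Fth1, -0.70 for Tfrc and -3.15 for Slc40a1. With TMM factors, which brought the median gene to -0.11, Ftl1, Aco1 and Ireb2 also passed 2-fold (2.17, 2.51 and 2.29), Tfrc no longer did (0.564) and Slc11a2 turned from below to above 1 (1.29). Without the reads of Ttr the median gene stood at -0.40, Aco1 also passed (2.08) and Slc11a2 was at 1.07. The directions of Trf, Heph, Slc40a1, Tfrc, Fth1, Ftl1, Aco1, Ireb2 and Cp were the same under all 3 scalings.

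**Figure D4:**
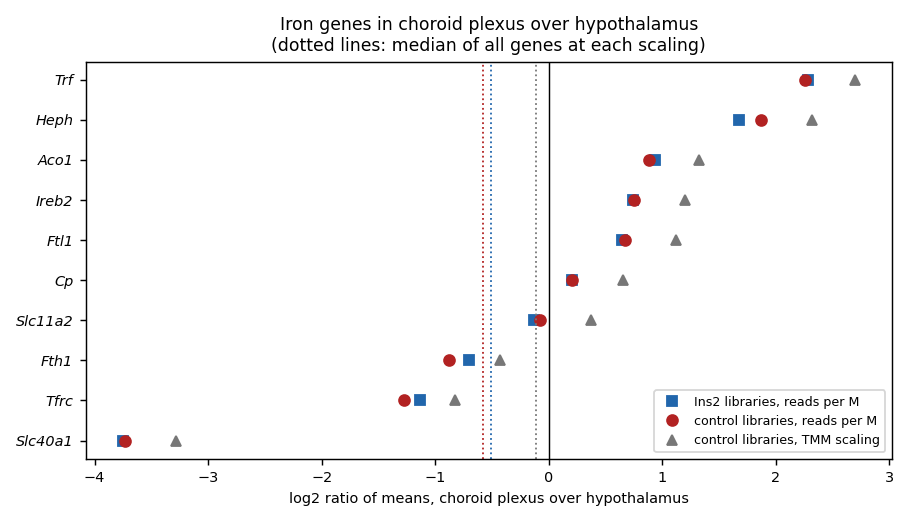
Log2 ratio of mean levels, choroid plexus over hypothalamus, for the 10 iron genes in Ins2 libraries (squares), in control libraries (circles) and in control libraries with TMM scaling (triangles), with the median of all genes under each scaling as a dotted line. Trf (2.25) and Heph (1.87) lay at the high end in the control libraries and Slc40a1 (-3.73) at the low end, and TMM scaling shifted all 10 to the right.

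Some other iron genes showed wider differences between the tissues. Of 58 further genes listed for iron handling, 50 had at least 1 read per M in one tissue, and 14 of them were higher in control choroid plexus and 8 lower by the same rule, beside the 16.2% higher and 38.6% lower of all genes. With TMM factors the counts were 18 and 6, beside 3458 higher and 4473 lower of 15216 genes. Without TMM factors, 2480 and 5905 of the 15314 genes were higher and lower. The 3 with the highest ratios were Steap1, a member of the family of metalloreductases, Bmp6, the ligand that induces hepcidin in liver, and Scara5, a receptor that takes up ferritin. Steap1 averaged 227 reads per M in control choroid plexus (210 to 247) and 0.381 in control hypothalamus (0 to 0.910). Bmp6 averaged 384 in choroid plexus and 4.39 in hypothalamus, and Scara5 averaged 79.95 in choroid plexus and 2.08 in hypothalamus, each tissue's libraries lying wholly apart. The 3 lowest were Hjv, the coreceptor hemojuvelin, Meltf, melanotransferrin, and Tfr2, the second transferrin receptor. Hjv had 0 reads in all 5 control choroid plexus libraries and 1.81 to 2.31 reads per M in control hypothalamus, at least 104-fold lower in choroid plexus when 3 reads are allowed over the group. That bound covers the controls alone, since 1 Ins2 choroid plexus library had 13.2 scaled reads of Hjv (mean of the 6, 2.20). Meltf had 17 reads in all over the choroid plexus controls and averaged 0.116 reads per M there and 1.75 in hypothalamus. Tfr2 averaged 0.901 reads per M in choroid plexus and 12.2 in hypothalamus. Hamp, which encodes hepcidin, and the related Hamp2 were each under 1 read per M in both tissues.

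The second comparison asked whether overexpression of Ins2 in the choroid plexus changed the iron genes of that tissue. None of the 10 passed the test. In choroid plexus limma called 2 of 14533 genes at an adjusted p under 0.05, which is 0.0138%, and 0 of the 10 iron genes. At an unadjusted p under 0.05 the counts were 0 of 10 members and 6.21% of all genes, and edgeR and DESeq2 on the recovered reads also called 0 members and had 0 at an unadjusted p under 0.05. Ins2 and control ranges overlapped for all 10, against 0.626% of all genes whose ranges did not. Of the members 4 lay above 0 and 6 below, with a median log2 fold change of -0.03, beside -0.005 for all genes tested.

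The intervals say how much change these libraries leave room for. Aco1 was at 2146 ± 68.9 scaled reads in Ins2 choroid plexus (SD, n = 6) and 2175 ± 78.4 in control choroid plexus (n = 5), a log2 fold change of -0.02 with a 95% interval of -0.12 to 0.09. Ftl1 was at 11715 ± 875 with Ins2 and 11681 ± 935 in controls, with an interval of -0.12 to 0.13, and Fth1 at 26853 ± 1865 with Ins2 and 26366 ± 3408 in controls, with an interval of -0.12 to 0.18. For Ireb2 the interval was -0.20 to 0.07 and for Slc11a2 -0.20 to 0.04. Those 5 genes had intervals within a fold of 0.87 to 1.14.

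Trf and Tfrc were measured less sharply. Trf was at 49071 ± 9566 in Ins2 choroid plexus and 50434 ± 8199 in controls, a log2 fold change of -0.05 (95% interval -0.28 to 0.19), and Tfrc at 1397 ± 315 with Ins2 and 1330 ± 246 in controls, a log2 fold change of 0.06 (-0.22 to 0.33). Heph was at 1527 ± 122 with Ins2 and 1670 ± 264 in controls, a log2 fold change of -0.12 (-0.30 to 0.06). The widest intervals were those of Cp, at 563 ± 248 with Ins2 and 567 ± 339 in controls (log2 fold change 0.12, -0.62 to 0.86, on the log scale above 0 although the Ins2 mean was the lower), and of Slc40a1, at 17.2 ± 6.05 with Ins2 and 20.47 ± 8.55 in controls (-0.21, -1.03 to 0.62). The sign of the Cp value turned without control 5 (-0.25) and without controls 2 and 5 together (-0.43), and its adjusted p-values lay between 0.877 and 0.9999 over the alternatives that gave one. Adjusted p-values of the 10 genes in the limma fit ran from 0.882 for Slc11a2 to 0.995 for Ftl1, and exact two-sided permutation p-values from 0.147 to 0.963 (462 splits, smallest possible 0.00216).

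In hypothalamus of the same design, none of the 10 passed either. Limma called 0 of 16363 genes (0%), edgeR 0 and DESeq2 21, with 1624 genes (9.92%) at an unadjusted p under 0.05 in limma. Among the members 1 had an unadjusted p under 0.05, Fth1, which was lower (4.08% of all genes were lower at that level), and all 10 had overlapping ranges, against 1.5% of genes whose ranges did not overlap. Their median log2 fold change was -0.02, beside 0.001 for all genes.

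Fth1 had scaled values of 54429, 56942, 52317, 50958 and 49523 in the Ins2 hypothalamus libraries and 60354, 55293, 56753, 60922 and 52719 in the controls. All 5 Ins2 libraries lay below the control mean, but 2 of them lay above the lowest control. The means were 52834 ± 2923 with Ins2 and 57208 ± 3454 in controls, a log2 fold change of -0.11 (95% interval -0.21 to -0.02; unadjusted p = 0.0229, limma adjusted p = 0.430; exact permutation p = 0.0635). It did not pass the correction, and its adjusted p lay between 0.176 and 0.693 over 20 alternatives.

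Slc40a1 in hypothalamus had 299, 276, 270, 282 and 282 scaled reads with Ins2 and 341, 343, 291, 340 and 292 in the controls, so that 1 Ins2 library reached into the control range. The means were 282 ± 11.1 with Ins2 and 321 ± 27.4 in controls (log2 fold change -0.19, 95% interval -0.40 to 0.03; limma adjusted p = 0.564). The exact permutation p was 0.0238, the lowest of the 20 run over members and tissues (252 splits in hypothalamus, smallest possible 0.00794). Ftl1, the other chain of ferritin, was at 9070 ± 211 with Ins2 and 8650 ± 987 in controls (log2 fold change 0.08, -0.05 to 0.20; adjusted p = 0.690). For Trf the log2 fold change was -0.04 (-0.13 to 0.06), for Tfrc -0.03 (-0.15 to 0.09), for Slc11a2 0.01 (-0.10 to 0.13), for Cp 0.02 (-0.27 to 0.30), for Heph 0.11 (-0.08 to 0.30), for Aco1 -0.04 (-0.17 to 0.10) and for Ireb2 -0.02 (-0.14 to 0.10).

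**Figure D5:**
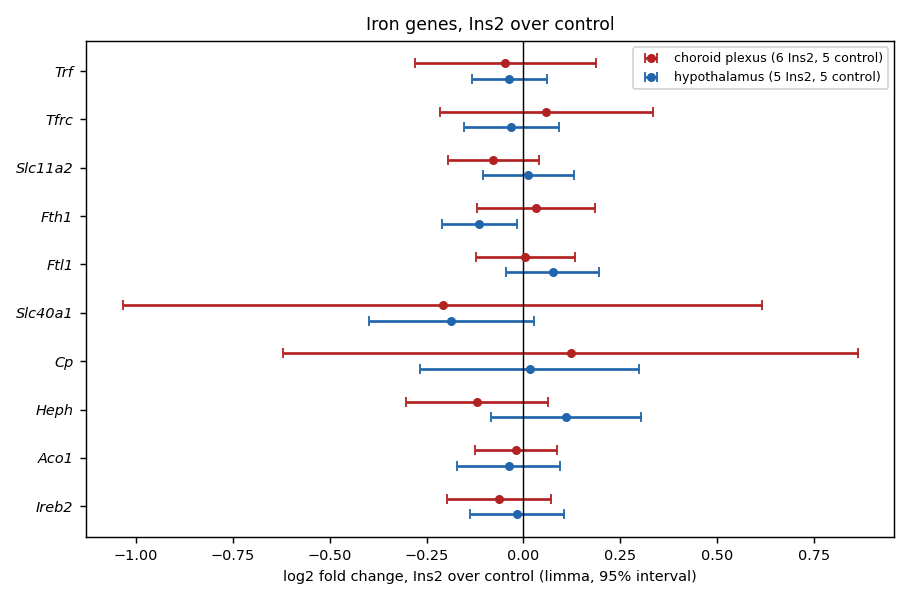
Log2 fold changes of the 10 iron genes, Ins2 over control, from limma with 95% intervals, in choroid plexus (upper point of each pair, 6 Ins2 and 5 control libraries) and hypothalamus (lower point, 5 and 5). All intervals include 0 except that of Fth1 in hypothalamus (-0.21 to -0.02), whose adjusted p was 0.430, and the widest are those of Slc40a1 and Cp in choroid plexus.

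The responses of the tissues were also set against each other. The difference of the log2 fold changes, choroid plexus minus hypothalamus, passed for 15 of 13997 genes (0.107%) and for 0 of the 10 members. It was largest in size for Heph (-0.23, 95% interval -0.49 to 0.03; adjusted p = 0.543) and came to 0.15 for Fth1 (-0.03 to 0.32; adjusted p = 0.565). The test treats libraries of the tissues as independent, which need not hold if they came from the same animals.

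Of the other iron genes, 49 of 58 were tested in choroid plexus, 25 above 0 and 24 below, with a median log2 fold change of 0.0003. None passed in limma or edgeR, and 7 had an unadjusted p under 0.05, 2 higher and 5 lower, where 2.54% of all genes were higher and 3.67% lower. Lrp1, a large endocytic receptor that takes up haem bound to hemopexin among many other ligands, had the smallest p. It had 27403 to 30598 scaled reads in the 6 Ins2 libraries and 30678, 34939, 37210, 34177 and 33233 in the controls, with no overlap. It was the 1 gene of the 49 without overlap, beside 0.626% of all genes. The log2 fold change was -0.24 (limma adjusted p = 0.385, 95% interval -0.36 to -0.12), and the exact permutation p was 0.00216, the least that 462 splits can give. DESeq2 alone called it (adjusted p = 0.00474), and over 22 alternatives its adjusted p ran from 0.00474 to 0.824.

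Others with a small p-value in choroid plexus included Neo1, neogenin, a hemojuvelin-binding receptor, at 2429 ± 145 with Ins2 and 2649 ± 76.6 in controls (log2 fold change -0.13, limma adjusted p = 0.764). Alas1, the first enzyme of haem synthesis, was at 4188 ± 174 with Ins2 and 3858 ± 199 in controls (0.12, adjusted p = 0.764), and Steap1 at 6153 ± 502 with Ins2 and 6772 ± 419 in controls (-0.14, adjusted p = 0.766). In hypothalamus 53 were tested, 25 above 0 and 28 below, with a median of -0.004, and none passed in limma, edgeR or DESeq2. There 4 had an unadjusted p under 0.05, 2 higher and 2 lower, where 5.85% of all genes were higher and 4.08% lower. Ranges did not overlap for 1 of the 53, beside 1.5% of all genes. The 5 smallest p-values belonged to Slc22a17, a lipocalin receptor (0.11), Slc25a28, a mitochondrial iron importer (0.13), Lyrm4, a partner of the iron-sulphur cluster enzyme (-0.15), Alas1 (-0.12) and Slc39a14, a metal importer (0.15), as log2 fold changes with limma adjusted p-values from 0.446 to 0.514. Of the exon bases of Alas1 7.53% and of Lyrm4 5.51% lie opposite another gene.

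Genes that varied most like Trf and Tfrc over the libraries of a tissue were named by root-mean-square difference of centred log2(value + 1). For Trf in choroid plexus (11 libraries) they were Nudt14, Plpp5, Endog, Ubl7 and Mocs3, at 0.11 to 0.13 against 0.22 for Trf itself, and in hypothalamus (10 libraries) Clstn2, Atp6v0a2, Setd2, Dhcr7 and Cyp51, at 0.03 to 0.04 against 0.07. For Tfrc they were P2rx5, D930048N14Rik, Slc26a11, Sbk1 and 3110056K07Rik in choroid plexus (0.12 to 0.14 against 0.26) and Rab4a, Grik1, Fam114a2, Ppp1r3f and Cry1 in hypothalamus (0.04 to 0.05 against 0.10). No gene was on the list of Trf or Tfrc in both tissues.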

How the data were processed

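Poly(A) RNA of choroid plexus (11 libraries) and hypothalamus (10 libraries) was isolated with a PicoPure kit and made into directional dUTP libraries, per the labels' protocols. HISAT2, featureCounts, DESeq2 and the build GRCm38 (mm10) are named in the submitters' processing notes; versions, roles and strand setting: not given in the sources used here. Each tissue has 1 deposited table of signal values, which per the labels the authors normalized with DESeq2, and the 2 tables were scaled separately. Dividing by the step of the low values turned 100% of values into whole numbers (tolerance 0.02). These reads supplied depth, reads per M (M, 1e+06), and the reads for edgeR 4.0.16 and DESeq2 1.42.0 as alternatives.

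The test was limma 3.58.1 (R 4.3.3; lmFit, eBayes with trend) on log2(value + 1) within each tissue, for genes with a mean of at least 10, two-sided, with Benjamini-Hochberg adjustment over all genes tested and a threshold of 0.05. Fold changes on this scale understate those of low genes. Single genes also had an exact permutation test over libraries. The difference between tissues used both moderated errors with Welch-Satterthwaite degrees of freedom. The fit was tested on simulated data. No 2 libraries of the same group agreed within sampling noise (lowest chi-square per degree of freedom 5.55). Pairs from different groups were not compared.

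The members, the list of 58 other iron genes, the marker lists and the alternatives were chosen with earlier results of these data known. Named by rule were all members, the 5 other iron genes with the smallest p in each tissue, any that passed, the 3 highest and 3 lowest in the comparison of tissues, and the 5 genes nearest to Trf and to Tfrc; the genes nearest to Cp were added after its values were seen. One gene that the rule names is not reported here. Annotation and transcripts were GENCODE M21, in which 1 listed gene, Hjv, was not matched by symbol. Alternatives were other pseudocounts (0.5 and 5), filters, scalings, tools, array weights, a replicate block and leaving out libraries.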

Additional observations from a re-analysis of the deposited data

Results flagged for a closer look

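Among 56 sets of member values or ratios in a group, 2 held a library far from the rest of its group by Dixon's criterion, where chance gives about 1 in 20. Trf was highest in choroid plexus control 1, with a scaled value of 64436, against 44070 to 49611 in the other 4 controls; its gap took 0.728 of the range, past the limit of 0.71. Without control 1 the log2 fold change of Trf, Ins2 over control, was 0.05. The ratio of Fth1 to Ftl1 reads was highest in choroid plexus control 2, at 2.96, against 1.95 to 2.22 in the other 4 controls, with a gap of 0.728 of the range. Control 2 also carried the myelin sum of 55432, and the part of any cell type in the ratio was not tested.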

How the results depend on the processing

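None of the 10 members passed in either tissue, or in the difference between tissues, under any alternative run, leave-one-out fits included. In choroid plexus the count of all genes that passed, 2, was 1 with a mean of at least 50, 25 with DESeq2, 6 with array weights and 1 to 4 with 1 library left out. It was 1 without Ins2 replicate 1, Ins2 replicate 4 or control 4, and 4 without Ins2 replicate 5. With DESeq2 1 of the other iron genes, Lrp1, passed. In hypothalamus the count, 0, was 21 with DESeq2, and 0 to 18 with 1 library left out (18 without control 6, 1 without control 4). Same-numbered libraries deviated together in neither tissue (correlations -0.15 to 0.14 in choroid plexus, -0.07 to 0.009 in hypothalamus). So few pairs cannot show whether the numbers mark a shared batch. The pairs went by replicate number, which in hypothalamus departs from the codes in the labels. Ins2 replicates 4 and 5 are coded F5 and F6 there, and control replicate 6 is coded G5. Pairing by code was not tested. The replicate block called 2 genes in choroid plexus and 57 in hypothalamus, and 0 members in either.

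Small fold changes turned sign. In choroid plexus Trf was 0.012 with array weights, Ftl1 -0.017 with the replicate block, Cp -0.00387 with edgeR, -0.012 with DESeq2 and -0.43 without controls 2 and 5 together, and Aco1 0.0019 with equal totals. In hypothalamus Slc11a2 was -0.00121 with equal totals and Cp -0.059 with the replicate block. The difference between tissues of Trf was 0.025 with equal totals and 0.052 with the replicate block, and that of Slc40a1 0.0079 with a pseudocount of 5 and 0.011 with equal totals. With 1 library left out, choroid plexus values spanned -0.14 to 0.045 for Trf, -0.021 to 0.16 for Tfrc, -0.018 to 0.10 for Fth1, -0.028 to 0.049 for Ftl1 and -0.25 to 0.39 for Cp. Hypothalamus values spanned -0.067 to 0.0028 for Trf, -0.078 to 0.025 for Tfrc, -0.018 to 0.039 for Slc11a2, -0.071 to 0.12 for Cp, -0.065 to 0.0072 for Aco1 and -0.070 to 0.012 for Ireb2. Differences spanned -0.10 to 0.082 for Trf, -0.18 to 0.13 for Slc40a1, -0.27 to 0.38 for Cp, -0.027 to 0.046 for Aco1 and -0.077 to 0.0066 for Ireb2. The causes were not tested. Slc40a1 in choroid plexus was not tested with a mean of at least 50. Its depth there, 10.98 to 29.9 scaled reads a library, limits its interval.

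The counts of members higher and lower between tissues, 2 and 2, held without each control library in turn. They stood beside 2480 and 5905 of 15314 genes. TMM factors gave 5 and 1, beside 3458 and 4473 of 15216 genes. Leaving out Ttr gave 3 and 2, beside 2833 and 5318 of 15361 genes. The log2 ratio of Cp spanned -0.11 to 0.44 with 1 control library left out and was below 0 only without choroid plexus control 1.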

Other observations

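In hypothalamus the Ins2 libraries lay closer together than the controls did. The coefficient of variation was lower in the Ins2 group for 9 of the 10 members, all but Cp, with a median of 3.81% in Ins2 hypothalamus and 8.61% in control hypothalamus. Across all 16363 genes tested there it was lower in the Ins2 group for 69.3%, with medians of 7.39% in Ins2 hypothalamus and 10.3% in control hypothalamus. In choroid plexus it was lower in the Ins2 group for 8 of 10 members and for 42.2% of all genes.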
